A study of Homo sapiens with 4 samples.

Results

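The kinesin motor genes were described in A549, a widely used cell line from a human lung adenocarcinoma, on 4 microarrays that compared cells expressing a mutant histone H2B with cells carrying an empty vector. Members were the genes whose symbol is KIF followed by digits and at most 1 letter, so the C-terminal motors KIFC1 to KIFC3, the accessory proteins KIFAP3 and KIFBP and the antisense transcript KIF25-AS1 were left out. This gave 39 of the 17687 genes that the array measured under a single symbol, each with 1 probe set, so no choice between probe sets was needed. KIF28P was the 1 RefSeq symbol of this form with no probe set here. By role, 14 were grouped as mitotic kinesins, 15 as transport kinesins and 10 as other kinesins.

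Kinesins are motor proteins that split ATP to walk along microtubules or to shorten their ends. In dividing cells, mitotic kinesins build the bipolar spindle, move and align chromosomes and complete cytokinesis, and their transcripts peak in G2 and mitosis. Transport kinesins carry vesicles, endosomes, mitochondria and ciliary cargo through the cytoplasm of dividing and resting cells alike. The remaining kinesins act mainly in cilia, centrioles and signalling.

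Both groups carried a short hairpin RNA against LDOC1, a gene for a small leucine zipper protein. The 2 arrays of the group H2BK120R came from these LDOC1-depleted cells with an added histone H2B that has arginine in place of the lysine that takes up monoubiquitin. The 2 arrays of the group vector came from LDOC1-depleted cells with the empty vector. The design text of the submitters states that monoubiquitylated H2B went up on LDOC1 depletion and down with the mutant, so the comparison asks which transcripts differ when the mark is lowered in depleted cells. Cells with intact LDOC1 or with added unmutated H2B were not analysed here, and the labels do not say whether the lines are clones or whether replicates were separate cultures. The p-values therefore reflect only how these 4 arrays scatter, which may be a technical scatter.

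Values are log2 levels as deposited, so a difference of 1 is a 2-fold change, and every difference below is H2BK120R minus vector. The array medians lay between 6.40 and 6.43, and vector replicate 1 correlated least with the other arrays (Pearson r of 0.9896 to 0.9911 across 21448 probe sets, against 0.993 to 0.9938 for the other 3 pairs). Genes known from A549 cells, among them keratins and the aldo-keto reductases, had 11 of 12 listed members measured and array medians between 14.92 and 15.07, although EPCAM averaged only 5.58 and KRT19 6.69. The median levels on any array reached at most 5.63 for 7 leukocyte, 4.53 for 7 fibroblast and 4.57 for 8 endothelial genes, among which CD68 (7.89), COL1A2 (8.26) and EGFL7 (9.89) had the highest means. No detection calls were used, so a low level cannot be told apart from background.

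No kinesin gene passed an adjusted p of 0.05 in limma (Benjamini-Hochberg over all probe sets), and the same held for all 21448 probe sets (0%). The smallest adjusted p among the 39 genes was 0.698, for KIF9. At an unadjusted p under 0.05 there were 4 kinesins, or 10.3% of 39, beside a background of 6.70% of all probe sets. They were KIF5C and KIF13B, both higher with H2BK120R (background 3.62% in that direction), and KIF9 and KIF25, both lower (3.08%). By role these were 0 of 14 mitotic, 2 of 15 transport (13.3%) and 2 of 10 other kinesins (20.0%), beside the same background of 6.70%. With so few genes per role, a contrast between roles was not tested. The count over all 39 kinesins and the background share both changed when an array was left out, which leaves 1 array in a group. In each of KIF5C, KIF13B, KIF9 and KIF25 both arrays of 1 group lay above both arrays of the other. Leaving out 1 array therefore could not change the sign of the difference. With 1 array left out, the differences ran between -1.03 and -0.69 for KIF9, -0.815 and -0.535 for KIF25, 0.32 and 0.47 for KIF13B, and 0.53 and 0.81 for KIF5C. The groups did not overlap, meaning that the 2 arrays of either group were both higher than the rest, for 16 kinesins, or 41.0%, beside 36.5% of all probe sets. The smallest two-sided p that an exact permutation test can reach with 2 arrays per group is 0.333.

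The precision differed between members. The 95% confidence interval of the difference extended between 0.27 (KIF5B) and 0.80 (KIF6) to either side of the estimate. For 31 of the 39 kinesins the whole interval lay within 1 log2 unit of 0, beside 75.5% of all probe sets, and these 31 included 12 of the 14 mitotic kinesins. A 2-fold change of those genes in either direction was therefore outside the interval. The mean level was above that of the dimmest 25% of probe sets for 36 of the 39 kinesins and above that of the dimmest 50% for 26.

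**Figure D1:**
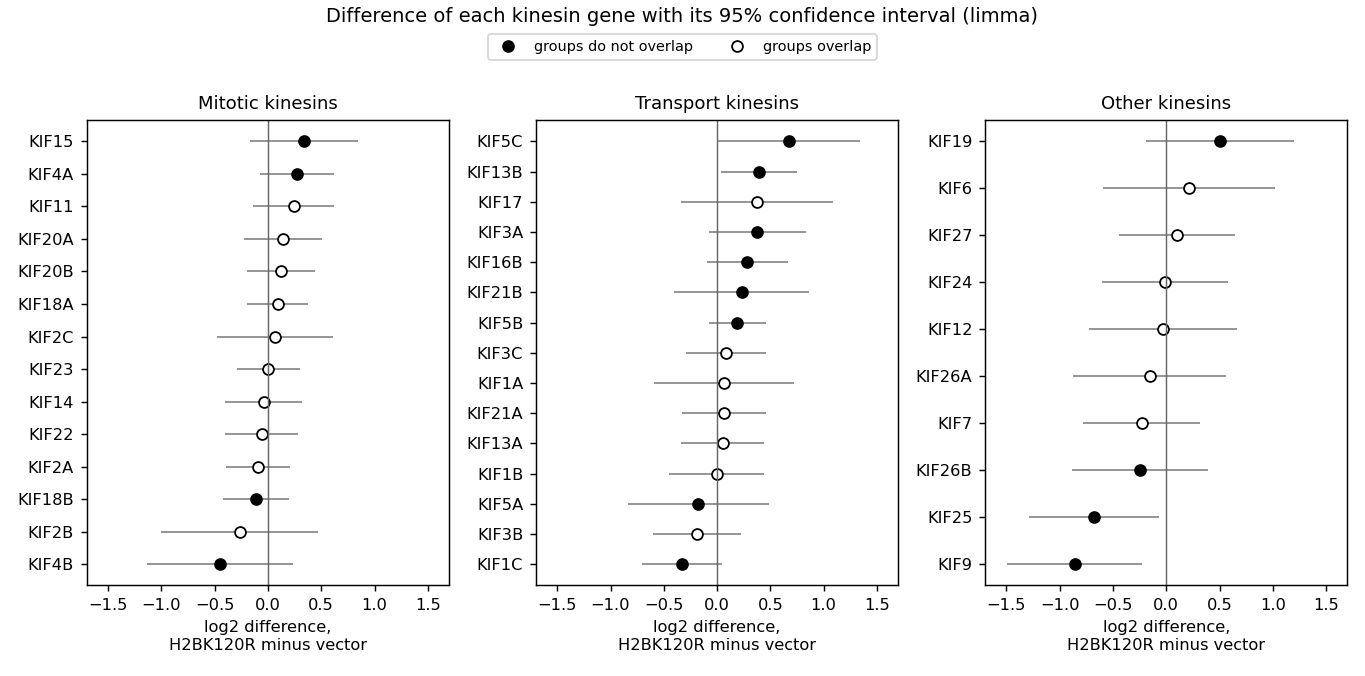
Log2 difference, H2BK120R minus vector, of each of the 39 kinesin genes (points) with the 95% confidence interval of the limma fit (lines), by role. Filled points mark the 16 genes whose groups do not overlap. The interval leaves out 0 for KIF5C, KIF13B, KIF25 and KIF9.

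The mitotic kinesins lay close to the vector level as a group. With H2BK120R 8 of the 14 genes were higher (background 49.9% above 0) and 6 lower (49.4% below 0). Their median difference was 0.04, beside a median of 0 over all probe sets. It was 0.09 over the 11 core members, which leave out KIF2A, KIF2B and KIF4B. Without the dimmest 50% of probe sets, which drops KIF2B and KIF4B, it was 0.08, beside a median of 0.03 over all remaining probe sets. The differences of the 14 mitotic kinesins ran between -0.45 (KIF4B) and 0.34 (KIF15). The groups did not overlap for 4 of the 14, or 28.6%, which is below the background of 36.5%. Leaving out vector replicate 1 gave a median of -0.05 and leaving out H2BK120R replicate 2 gave -0.01, so its sign rested on these arrays. In RNA from whole cultures, a change in the share of cells in mitosis and a change in transcript per cell cannot be told apart.

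The 4 mitotic kinesins with the smallest p were KIF4A, KIF15, KIF4B and KIF11. KIF4A is a chromokinesin that works with PRC1 in the central spindle, and KIF4B is its intronless copy. KIF11, also known as Eg5, slides antiparallel microtubules apart to make the spindle bipolar, and KIF15 can take part in the same task. Transcription of many such genes is held down outside G2 and mitosis through a promoter element called CHR, bound by the DREAM and MuvB complexes, and is activated by NF-Y at CCAAT boxes. The windows run from 250 bases before to 50 bases after the start site, where such elements would lie, and are shown for these genes. The window of the transport kinesin KIF5C is shown beside them, as KIF13B, with a smaller p, had no window. Whether the coding KIF5C transcript starts there was not checked. Capitals mark TTTGAA or TTCGAA (CHR letters) and CCAAT, each on either strand, where TTTGAA reads as TTCAAA and CCAAT as ATTGG on the other one. No matches overlap each other in the windows shown. The sequences are from RefSeq on GRCh38.p14, 5′ to 3′ on the gene's strand. All 5 are on the plus strand, at chrX:70289854-70290153 (KIF4A), chr3:44761544-44761843 (KIF15), chr5:155013505-155013804 (KIF4B), chr10:92592880-92593179 (KIF11) and chr2:148947625-148947924 (KIF5C).
KIF4A: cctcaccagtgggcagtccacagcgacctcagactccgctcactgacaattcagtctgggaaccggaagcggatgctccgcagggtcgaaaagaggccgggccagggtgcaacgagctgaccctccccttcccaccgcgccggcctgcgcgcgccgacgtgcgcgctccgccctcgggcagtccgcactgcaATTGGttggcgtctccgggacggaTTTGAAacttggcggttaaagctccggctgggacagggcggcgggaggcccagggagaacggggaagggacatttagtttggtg
KIF15: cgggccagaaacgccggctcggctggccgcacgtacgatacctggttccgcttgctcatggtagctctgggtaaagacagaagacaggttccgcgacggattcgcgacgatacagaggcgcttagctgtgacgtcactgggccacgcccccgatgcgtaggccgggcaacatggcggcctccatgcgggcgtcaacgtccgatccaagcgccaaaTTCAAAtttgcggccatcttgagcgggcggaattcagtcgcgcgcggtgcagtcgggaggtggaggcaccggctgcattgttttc
KIF4B: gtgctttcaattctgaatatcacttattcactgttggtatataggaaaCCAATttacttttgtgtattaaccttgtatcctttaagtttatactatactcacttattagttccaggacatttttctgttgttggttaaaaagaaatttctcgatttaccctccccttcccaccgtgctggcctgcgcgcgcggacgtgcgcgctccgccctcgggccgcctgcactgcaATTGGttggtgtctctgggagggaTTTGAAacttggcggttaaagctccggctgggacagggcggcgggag
KIF11: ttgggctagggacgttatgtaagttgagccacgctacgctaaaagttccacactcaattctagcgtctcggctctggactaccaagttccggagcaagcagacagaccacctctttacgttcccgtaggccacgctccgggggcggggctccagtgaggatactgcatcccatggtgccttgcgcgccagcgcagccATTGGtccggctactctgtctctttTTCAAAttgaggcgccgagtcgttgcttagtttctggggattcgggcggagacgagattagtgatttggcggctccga
KIF5C: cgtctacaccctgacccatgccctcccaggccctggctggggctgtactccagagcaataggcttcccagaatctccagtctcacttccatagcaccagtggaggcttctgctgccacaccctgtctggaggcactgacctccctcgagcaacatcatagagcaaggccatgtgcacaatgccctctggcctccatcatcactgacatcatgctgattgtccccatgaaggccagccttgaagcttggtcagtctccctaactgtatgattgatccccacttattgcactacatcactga

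In KIF4A the CCAAT match began 58 bases and the CHR match 34 bases before the start site, and in KIF11 they began 53 and 28 bases before it. KIF15 had a CHR match 35 bases before the start and no CCAAT match, and the KIF5C window shown had neither. The KIF4B window held the same pair of matches as KIF4A, displaced by 37 bases, so that its CHR letters fell 3 bases after the annotated start. At that shift 62.0% of 263 bases were identical, with a longest identical run of 50 bases. The genes are near-identical copies, so their probe sets may also read each other's transcripts.

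Across the family, windows were matched for 33 of the 39 kinesins; KIF5A, KIF13B, KIF19, KIF21B, KIF26B and KIF27 had no entry. CHR letters were found in 10 of 14 mitotic windows (71.4%), 1 of 12 transport windows (8.33%), 1 of 7 other windows (14.3%) and 16.6% of all 27305 windows. A CCAAT box was found in 10 of 14 mitotic windows (71.4%), 3 of 12 transport windows (25%), 3 of 7 other windows (42.9%) and 35.7% of all windows. Both were present in 9 mitotic windows (64.3%), against 6.58% of all windows. The 1 transport kinesin with both was KIF5B. In the mitotic windows the CHR letters began between 55 bases before the start (KIF23) and 30 bases after it (KIF20B). The 10 mitotic kinesins with CHR letters had a median expression difference of 0.05 (range -0.45 to 0.34) and the 4 without them, which were KIF2A, KIF2B, KIF2C and KIF20A, a median of -0.01 (range -0.27 to 0.14). These matches describe letters in a window and show no binding.

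**Figure D2:**
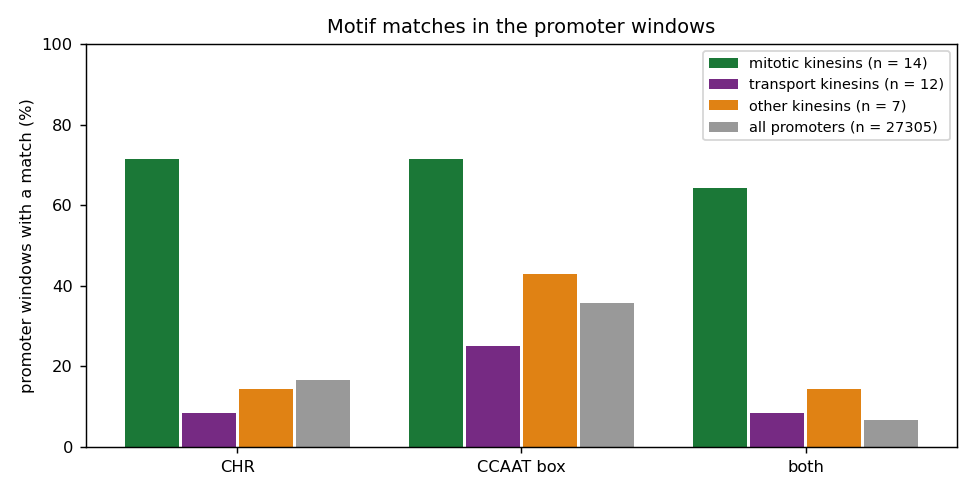
Percent of promoter windows (300 bases, RefSeq) that hold CHR letters, a CCAAT box or both, for mitotic, transport and other kinesins and for all windows. Bars give the share, and the number of windows is in the legend. Mitotic kinesins held both in 64.3% of windows, against 6.58% of all windows.

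Among the spindle assembly motors, KIF11 had levels of 11.93 and 12.06 with H2BK120R, against 11.52 and 11.99 with the vector. Vector replicate 1 was low and the other 3 arrays lay close together, so the groups overlapped. The difference was 0.24 (SE 0.17, limma adjusted p = 0.810) and was 0.005 without vector replicate 1. KIF15 was at 7.95 and 8.17 with H2BK120R and at 7.61 and 7.83 with the vector. The groups did not overlap, and replicate 2 exceeded replicate 1 by 0.22 in each, less than the difference of 0.34 (SE 0.23, limma adjusted p = 0.798).

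The motors that act on chromosomes and chromosome alignment differed in sign. KIF4A was at 11.22 and 11.39 with H2BK120R and at 10.92 and 11.14 with the vector, without overlap. Its difference was 0.28 (SE 0.16), or 21.0% higher, with a limma adjusted p of 0.767. KIF4B was at 4.05 and 4.03 with H2BK120R, against 4.27 and 4.71 with the vector, a difference of -0.45 (SE 0.31, limma adjusted p = 0.805). The estimates for the copies thus differed in sign, and both probe sets were without overlap between groups. Both 95% intervals included 0 (-0.072 to 0.622 for KIF4A and -1.138 to 0.238 for KIF4B). The KIF4B probe set is among the dimmest 50%, so its signal may not be told apart from background. KIF22, a chromokinesin that pushes chromosome arms away from the poles, was at 11.12 and 11.10 with H2BK120R and at 11.06 and 11.28 with the vector. KIF18A, which dampens chromosome movements during alignment, was at 12.88 and 12.75 with H2BK120R and at 12.78 and 12.67 with the vector. Both genes overlapped between the groups, with differences of -0.06 and 0.09.

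KIF18B, a relative of KIF18A that limits astral microtubules, was at 11.50 and 11.54 with H2BK120R and at 11.67 and 11.60 with the vector. The groups did not overlap, but the difference was -0.12 with an SE of 0.14. The microtubule-shortening kinesins of the KIF2 group overlapped between the groups. KIF2A was at 12.04 and 11.91 with H2BK120R, against 12.11 and 12.03 with the vector. KIF2B was at 4.14 and 4.11 with H2BK120R, against 4.03 and 4.75 with the vector, so that vector replicate 2 alone stood high. KIF2C, which corrects faulty kinetochore attachments, was at 9.15 and 9.61 with H2BK120R and at 8.99 and 9.63 with the vector. In KIF2C replicate 2 was higher than replicate 1 in both groups by far more than the difference of 0.07 between groups.

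The cytokinesis motors likewise overlapped. KIF23, the motor of the centralspindlin complex, was at 12.50 and 12.73 with H2BK120R and at 12.56 and 12.66 with the vector, a difference of 0.005 that turned negative after quantile normalization. Its partner RACGAP1 differed by -0.10 (SE 0.11). KIF20A, which brings the chromosomal passenger complex to the central spindle, was at 11.61 and 11.83 with H2BK120R, against 11.39 and 11.77 with the vector. Its difference of 0.14 became -0.05 without vector replicate 1. KIF20B was at 12.07 and 12.23 with H2BK120R, against 12.14 and 11.91 with the vector, and differed by 0.13 (SE 0.15). KIF14, which binds citron kinase at the midbody, was at 10.40 and 10.29 with H2BK120R, against 10.46 and 10.31 with the vector. In each of these 4 cytokinesis genes the arrays of the groups were interleaved.

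**Figure D3:**
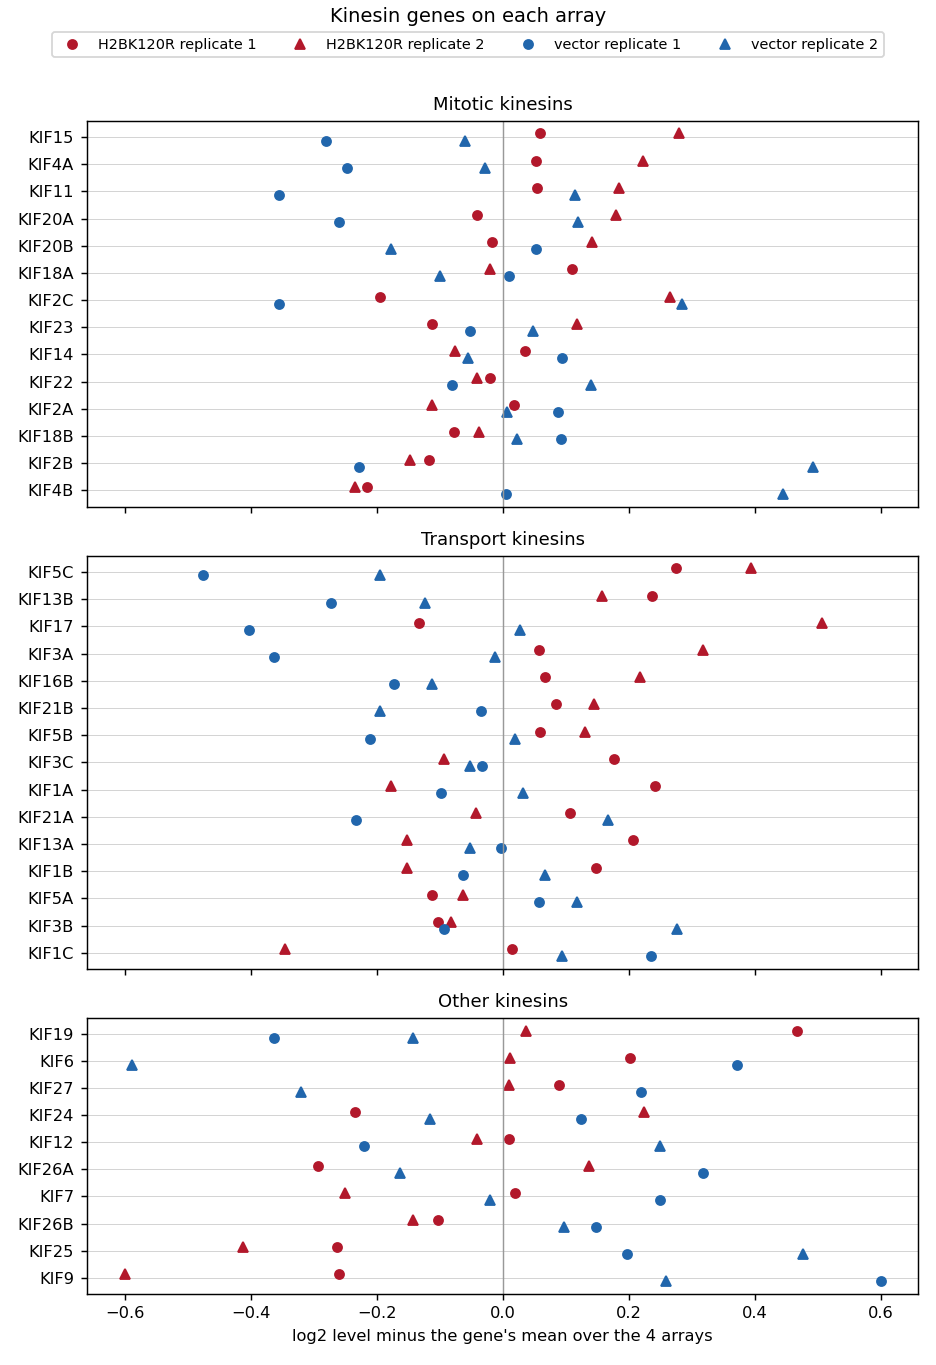
Log2 level of each of the 39 kinesin genes on each array, minus the gene's mean over the 4 arrays. Red marks H2BK120R and blue vector, circles replicate 1 and triangles replicate 2. Vector replicate 1 lies to the left for KIF15, KIF4A, KIF11, KIF20A and KIF2C, while KIF9 and KIF25 separate by group.

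Other proliferation genes were set beside the mitotic kinesins by array. Averaged over the mitotic kinesins, the deviation from each gene's mean was -0.03 and 0.05 on the H2BK120R arrays and -0.11 and 0.09 on the vector arrays. For 17 proliferation genes, such as MKI67, TOP2A and cyclins, it was 0.01 and 0.11 on the H2BK120R arrays and -0.15 and 0.02 on the vector arrays. Vector replicate 1 was lowest in both lists, while the highest array was vector replicate 2 for the mitotic kinesins and H2BK120R replicate 2 for the proliferation genes. Of these proliferation genes 14 were higher with H2BK120R (82.4%, background 49.9%) and 3 were lower, and the median was 0.07. None passed the adjusted threshold, and 2 had an unadjusted p under 0.05 in limma (11.8%, background 6.70%). These were CCNA2 with a difference of 0.74 (SE 0.25) and MKI67 with 0.28 (SE 0.12). CCNA2 was at 13.52 on both H2BK120R arrays, against 13.29 and 12.28 with the vector, so that vector replicate 2 alone stood low. The part of proliferation in the kinesin values was not tested.

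Genes that work beside the mitotic kinesins gave values of the same order. Of 21 measured spindle partners 14 were higher and 7 lower with H2BK120R, with a median of 0.14 and 7 without overlap (33.3%, background 36.5%). ECT2, the cytokinesis exchange factor, differed by 0.32 (SE 0.11, limma adjusted p = 0.722), NUMA1, a spindle pole organiser, by -0.37 (SE 0.15) and NUSAP1 by 0.26 (SE 0.13). All 4 kinesins whose symbols fall outside the family rule were higher, with KIFC1 differing by 0.22 (SE 0.16), the kinetochore motor CENPE by 0.15 (SE 0.14) and KIFC2 by 0.40 (SE 0.34). Among 16 genes for the DREAM, MuvB, FOXM1 and NF-Y factors, 10 were higher (62.5%, background 49.9%) and 6 were lower, and the median was 0.14. The groups did not overlap for 9 of these 16 (56.2%, background 36.5%), of which 6 were higher and 3 lower. RBL2, a pocket protein of DREAM, was at 10.77 and 10.71 with H2BK120R and at 10.37 on both vector arrays. The NF-Y subunits NFYA and NFYB differed by 0.42 (SE 0.19) and -0.34 (SE 0.17). None of the genes in these 3 lists passed the adjusted threshold. An unadjusted p under 0.05 was found for 2 of the 21 spindle partners (9.5%, background 6.70%), ECT2 and NUMA1, for 1 of the 16 transcription factor genes (6.2%), RBL2, and for 0 of the 4 kinesins outside the rule.

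The transport kinesins were more often higher than lower with H2BK120R. Of 15 genes 11 were higher and 4 were lower, and the median difference was 0.09, beside 49.9% of all probe sets above 0. The groups did not overlap for 8 genes, 6 of them higher (background 18.6%) and 2 lower (background 17.9%). Leaving out H2BK120R replicate 1 gave a median of -0.01, and leaving out H2BK120R replicate 2 a median of 0.20, so the mutant arrays differed on it. The mitotic median minus the transport median was -0.05, while array-level values of that difference had a standard deviation of 0.10 between replicates. This value became 0.08 when H2BK120R replicate 1 was left out and -0.21 when H2BK120R replicate 2 was. A difference between the mitotic and transport kinesins was therefore not larger than the spread between replicates.

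**Figure D4:**
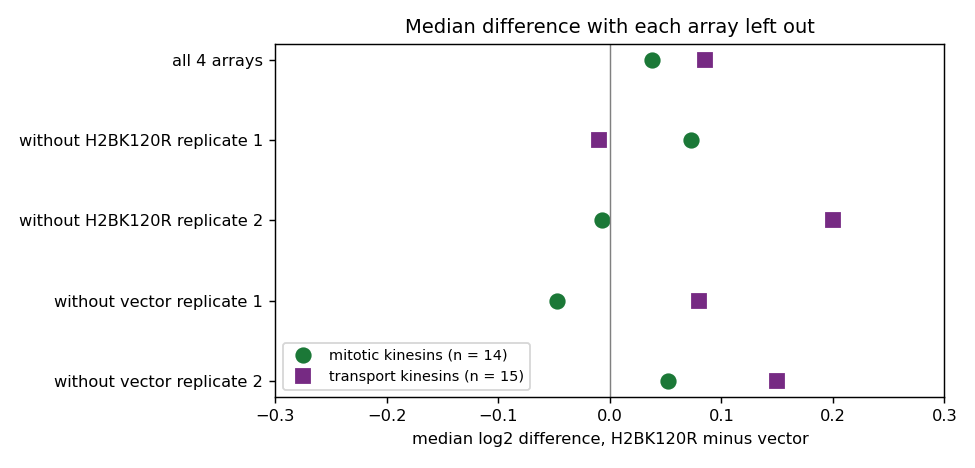
Median log2 difference, H2BK120R minus vector, of the mitotic kinesins (green circles) and the transport kinesins (purple squares), with all 4 arrays and with each array left out. The transport median moves between -0.01 and 0.20 and the mitotic median between -0.05 and 0.07.

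Kinesin-1 is the motor of mitochondria, lysosomes and many vesicles, and its heavy chains are KIF5A, KIF5B and KIF5C. KIF5B, the form made in most tissues, was at 14.12 and 14.19 with H2BK120R, against 13.85 and 14.08 with the vector. There was no overlap, with a difference of 0.19 (SE 0.12, limma adjusted p = 0.784). The neuronal form KIF5C was at 4.40 and 4.52 with H2BK120R, against 3.65 and 3.93 with the vector, a difference of 0.67 (SE 0.30) with a limma adjusted p of 0.745. Both arrays with the mutant were above both vector arrays, but the probe set is among the dimmest 25%, where signal cannot be told apart from background. The platform annotation pairs that probe set with a non-coding accession of KIF5C only, and paralogs of the family are similar in sequence. KIF5A, also mainly neuronal, was at 4.37 and 4.42 with H2BK120R and at 4.54 and 4.60 with the vector, a difference of -0.17 (SE 0.30). The kinesin light chains, which couple the motor to cargo, differed by -0.17 for KLC1, 0.12 for KLC2, 0.24 for KLC3 and -0.21 for KLC4.

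Kinesin-2 drives transport into cilia as a trimer of KIF3A, KIF3B or KIF3C, and the adaptor KIFAP3. KIF3A was at 9.27 and 9.53 with H2BK120R, against 8.85 and 9.20 with the vector. Its groups were apart, and the difference was 0.38 (SE 0.21, limma adjusted p = 0.767). KIFAP3 was at 8.96 and 9.63 with H2BK120R, against 8.55 and 8.89 with the vector, a difference of 0.57 (SE 0.25, limma adjusted p = 0.745). Its lower mutant array was close to the higher vector array. KIF3B, the partner of KIF3A, overlapped between groups, with a difference of -0.19 (SE 0.19). KIF3C and KIF17, a further kinesin-2 motor, overlapped between groups, with differences of 0.09 and 0.38.

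Kinesin-3 motors carry vesicles and endosomes. KIF13B, which transports the scaffold DLG1, was at 10.69 and 10.61 with H2BK120R, against 10.18 and 10.33 with the vector. The groups were well apart, with a difference of 0.40 (SE 0.16), or 31.5% higher, and a limma adjusted p of 0.745. The difference lay between 0.32 and 0.47 with each array left out. KIF16B, a motor of early endosomes, was at 9.92 and 10.07 with H2BK120R and at 9.68 and 9.74 with the vector, a difference of 0.29 (SE 0.17). KIF1C, which moves secretory vesicles and acts at podosomes, was at 11.07 and 10.71 with H2BK120R, against 11.29 and 11.15 with the vector. It was the transport kinesin furthest below 0, at -0.33 (SE 0.17, limma adjusted p = 0.760). KIF1A, KIF1B and KIF13A overlapped between groups, with differences of 0.07, -0.005 and 0.06.

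The 2 members of the KIF21 group, which slow microtubule growth besides carrying cargo, were also measured. KIF21B was at 5.85 and 5.91 with H2BK120R and at 5.73 and 5.57 with the vector, a difference of 0.23 (SE 0.29). KIF21A overlapped between groups at 0.07. Of 17 measured cargo adaptors and regulators of transport kinesins, 9 were higher and 8 were lower. The median was 0.05, and 8 were without overlap (47.1%, background 36.5%). KIFAP3 had the 1 unadjusted p under 0.05 among them (5.9%, background 6.70%). KIFBP, which inhibits several kinesins, differed by 0.27 (SE 0.16) and the mitochondrial GTPase RHOT2 by -0.18 (SE 0.14).

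**Figure D5:**
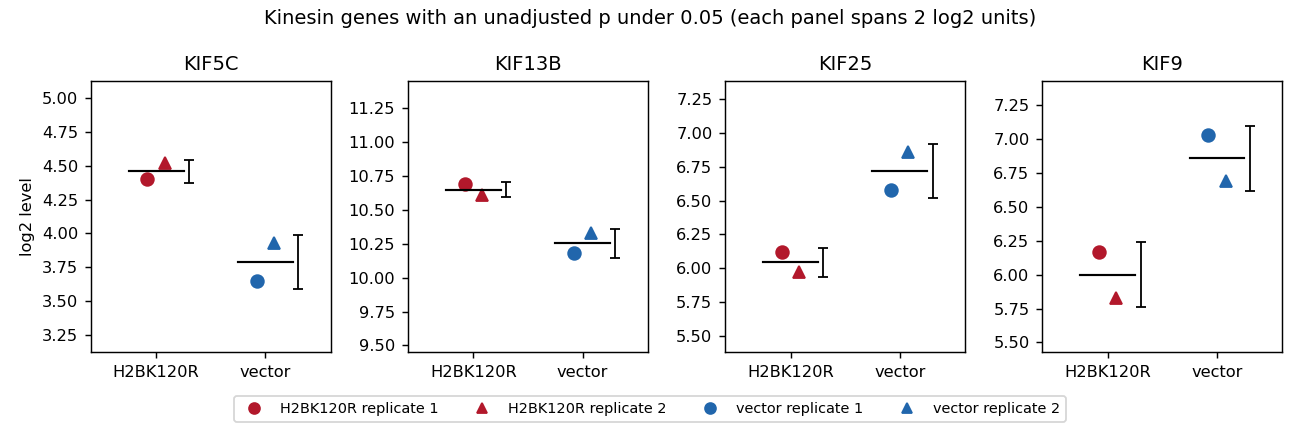
Log2 levels on the 2 H2BK120R arrays (red) and the 2 vector arrays (blue) of KIF5C, KIF13B, KIF25 and KIF9, with the group mean (line) and its SD (bar, n = 2). Circles are replicate 1 and triangles replicate 2. In each panel the groups do not overlap, with KIF5C and KIF13B higher and KIF25 and KIF9 lower with H2BK120R.

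Among the other kinesins, 3 of 10 were higher and 7 lower with H2BK120R, with a median of -0.09. KIF9, a kinesin of the sperm tail in mouse, was at 6.17 and 5.83 with H2BK120R, against 7.03 and 6.69 with the vector. The groups were apart, with the mutant arrays the lower, and the replicates were 0.34 apart in each group. The difference of -0.86 (SE 0.29, limma adjusted p = 0.698) is a change of -44.9% on the linear scale. It was the largest in size of the 39 kinesins and lay between -1.03 and -0.69 with each array left out. KIF25, which acts on centrosome positioning, was at 6.12 and 5.97 with H2BK120R and at 6.58 and 6.86 with the vector. Its difference was -0.68 (SE 0.28, limma adjusted p = 0.745), again without overlap. The KIF25 probe set, with a mean level of 6.38, is among the dimmest 50%, so its signal may not be told apart from background. The antisense transcript KIF25-AS1, on its own probe set, was at 6.17 and 5.77 with H2BK120R and at 6.18 and 6.13 with the vector, a difference of -0.18 with overlapping groups.

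The ciliary and signalling kinesins varied with no common sign. KIF19, which shortens ciliary microtubules in mouse, was at 4.97 and 4.54 with H2BK120R, against 4.14 and 4.36 with the vector, a difference of 0.50 (SE 0.32, limma adjusted p = 0.781). KIF26B was at 3.51 and 3.47 with H2BK120R and at 3.76 and 3.71 with the vector, a difference of -0.24 (SE 0.29). Neither interval left out 0, although the groups did not overlap for either gene. The KIF19 probe set is among the dimmest 50% and the KIF26B probe set among the dimmest 25%, so their signal may not be told apart from background. KIF7, a regulator of Hedgehog signalling at the ciliary tip, differed by -0.23 (SE 0.25) and its relative KIF27 by 0.10 (SE 0.25). KIF24, which restrains cilium formation at the mother centriole, differed by -0.01 (SE 0.27). KIF6, KIF12 and KIF26A overlapped between groups, with differences of 0.21, -0.03 and -0.16.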

How the data were processed

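Total RNA was profiled on 4 Affymetrix whole-transcript arrays, 2 per group, grouped by the sample titles. The authors deposited 1 log2 level per probe set and array. The base of 2 is inferred from the range of 1.56 to 19.15 and the normalization between arrays from the near-equal medians. MAS5 is named in the submitters' processing notes, while the way it was run, the background correction and the build were not given in the sources used here. Of 21448 probe sets, 17709 had 1 gene symbol in GEO's platform annotation and 3739 were unnamed here. All 39 kinesin gene IDs matched RefSeq, and 0 symbols needed an update.

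The comparison used limma 3.58.1 under R 4.3.3 (eBayes on lmFit, with the trend option, no covariate, two-sided, Benjamini-Hochberg over all 21448 probe sets), with 2 residual and 8.95 prior degrees of freedom. The fit was also run on simulated data, with no change or with changes of at least 1 log2 unit, larger than any kinesin difference here. That run therefore does not show how the fit handles changes of the size reported. The kinesins, the role lists and the partner lists were chosen with earlier results of these data known, so no test was made over a list. Array levels are given for every mitotic kinesin and for other kinesins without overlap or with an unadjusted p under 0.05, and for at most 3 genes of each partner list by p, with the light chains, RACGAP1, KIF25-AS1 and the named cell type markers added after their values were seen. Promoter letters were searched in 300-base RefSeq windows. Figures used Python 3.11.15 and matplotlib 3.10.9. Precision is limited by having 2 arrays per group.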

Additional observations from a re-analysis of the deposited data

How the results depend on the processing

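No setting brought any kinesin or any other probe set past an adjusted p of 0.05 in limma (0 in each). The settings were quantile normalization, equal medians, 2 filters on dim probe sets, named probe sets only, eBayes without trend or robust, a replicate block, and each array left out. With all arrays and probe sets, 4 kinesins had an unadjusted p under 0.05 in limma, beside 6.70% of all probe sets. Without the dimmest 50% of probe sets, 2 of the 26 kinesins tested reached that level, beside 8.42% of all probe sets tested. With the replicate number as a block the kinesin count was 5, beside 8.61% of all probe sets. Both the kinesin count and the share over all probe sets changed with 1 array left out, which leaves 1 array in a group. Replicate differences in the groups correlated at 0.141 across probe sets, and the labels do not pair the numbers. With 1 array left out, the mitotic median ran between -0.0475 and 0.0725, the transport median between -0.01 and 0.20 and the mitotic minus transport median between -0.2075 and 0.0825. Those fits assume that a lone array has the spread of the other group. With the core lists, which drop KIF2A, KIF2B, KIF4B, KIF17, KIF21A and KIF21B, the mitotic minus transport median was 0.015, and the other settings left the medians within the spread between replicates. The 26 kinesins followed were the mitotic ones and any other without overlap or with an unadjusted p under 0.05 in limma. Of these, 20 kept their sign in every setting that tested them. However, 16 of the 26 were without overlap between groups, so leaving out 1 array could not change their sign. The 6 that changed sign all overlapped between groups. KIF23 was at -0.01 with equal medians and -0.0413 after quantile normalization. With 1 array left out, differences ran between -0.11 and 0.12 for KIF23, -0.115 and 0.035 for KIF14, -0.05 and 0.33 for KIF20A, -0.17 and 0.05 for KIF22, -0.63 and 0.10 for KIF2B, and -0.25 and 0.39 for KIF2C. Apart from the fewer arrays or probe sets, the cause was not tested.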

Other observations

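The minus-end motor dynein and the tubulins, which share the microtubule with the kinesins, were measured on the same arrays. With H2BK120R 13 of 21 dynein and dynactin genes were higher and 8 were lower. The median was 0.03, and 6 genes were without overlap (28.6%, beside 36.5% of all probe sets). The cargo adaptor BICD2 was at 8.64 and 8.81 with H2BK120R, against 8.95 and 9.39 with the vector, a difference of -0.44 (SE 0.22, limma adjusted p = 0.746). The dynactin subunit DCTN3 differed by 0.40 (SE 0.24) and the light chain DYNLL2 by -0.23 (SE 0.17).

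Tubulins were split, with 6 of 11 genes higher and 5 lower, a median of 0.03, differences between -0.46 and 0.24, and 3 without overlap (27.3%, beside 36.5%). TUBG1, the gamma tubulin that nucleates microtubules, was at 15.17 and 15.35 with H2BK120R, against 14.95 and 15.10 with the vector, a difference of 0.23 (SE 0.11, limma adjusted p = 0.745). None of the dynein, dynactin or tubulin genes passed the adjusted threshold, and 0 had an unadjusted p under 0.05 in limma, beside 6.70% of all probe sets.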
